A study of Mus musculus with 2 samples.

Results

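The myogenic regulatory factors Myod1, Myog, Myf5 and Myf6 are the 4 transcription factors that direct cells into the skeletal muscle lineage. Ring1B at their promoters was measured in mouse ES (embryonic stem) cells by ChIP-chip, which hybridises immunoprecipitated DNA and input DNA together to a tiling array. The genes were taken by name, with earlier results of these arrays known. All probes annotated to them were taken, which gave 4 of the 16808 genes with at least 3 probes. DNA recovered with a monoclonal Ring1B antibody carried Cy5, and input DNA from the same kind of lysate, taken without the antibody, carried Cy3. The series held 2 arrays, which are the 2 slides of one promoter set. They are 1 group of ES cells with no second genotype, treatment or time, and no ES cell line is named. Slide 1 carried Myod1 and Myog, and slide 2 carried Myf5 and Myf6. No probe was on both slides, so each promoter was measured once, with no replicate, no dye swap and no mock immunoprecipitation. No test and no p-value was therefore possible, and every error below is the spread over the probes of one gene on one array. The source names of both arrays begin with Muscle, whereas their titles name ES cells. The titles were followed, and the cell type itself was not tested, since recovered DNA is no measure of expression.

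Myf5 and Myod1 are known as the determination factors, which commit precursor cells to muscle. Myf6, also called Mrf4, acts both early in the embryo and late in muscle fibres, and Myog drives the fusion of committed cells into fibres. All of them are basic helix-loop-helix (bHLH) proteins that pair with the widely expressed E proteins and bind E-boxes, the sequence CANNTG. Ring1B, encoded by Rnf2, is the enzyme of Polycomb repressive complex 1 that attaches ubiquitin to histone H2A, and in ES cells this complex is known for covering CpG-rich promoters of developmental regulators that are silent there.

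The highest and the lowest probe of each gene are shown because a gene's value is a mean over probes that lay far apart. The sequences are those printed on the arrays, written on the plus strand of the files' coordinates, with CpG dinucleotides in capitals. The build of these coordinates is not named in the labels or file headers used here.
Myod1, highest, chr7:42554571-42554617: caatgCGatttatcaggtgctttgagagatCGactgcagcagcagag
Myod1, lowest, chr7:42549292-42549346: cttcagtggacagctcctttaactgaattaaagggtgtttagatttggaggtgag
Myog, highest, chr1:134181367-134181414: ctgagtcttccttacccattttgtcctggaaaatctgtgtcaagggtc
Myog, lowest, chr1:134180562-134180609: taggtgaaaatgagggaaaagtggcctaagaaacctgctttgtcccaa
Myf5, highest, chr10:106946617-106946661: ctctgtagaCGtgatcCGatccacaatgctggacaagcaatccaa
Myf5, lowest, chr10:106949179-106949223: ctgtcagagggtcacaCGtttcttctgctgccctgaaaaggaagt
Myf6, highest, chr10:106956382-106956434: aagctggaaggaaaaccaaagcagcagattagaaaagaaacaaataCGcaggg
Myf6, lowest, chr10:106956061-106956111: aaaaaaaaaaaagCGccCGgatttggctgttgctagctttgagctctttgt
The highest probe of Myod1 read 2.58 and its lowest -3.63, as log2 ratios of immunoprecipitated over input DNA after centring on the median probe of the slide. The probes of Myog ran from -2.76 to 2.03, those of Myf5 from -1.59 to 2.52 and those of Myf6 from -2.42 to 2.96. In every one of the 4 genes the highest probe was dimmer in input than the lowest. Input is the denominator of the ratio by which these probes were picked, so the choice itself favours this. The input signals were 241 and 1210 at the highest and the lowest probe of Myod1, 293 and 1496 at those of Myog, 101 and 3595 at those of Myf5, and 101 and 4650 at those of Myf6.

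None of the 4 promoters stood high for Ring1B. The mean log2 ratio was 0.05 at Myf5 (SD 0.85 over 43 probes), -0.01 at Myf6 (SD 1.12, 37 probes), -0.10 at Myog (SD 1.07, 36 probes) and -0.48 at Myod1 (SD 1.49, 40 probes). The median probe gave the same order, at 0.01, -0.02, -0.05 and -0.31. The median over all genes was -0.10, so Myf5, Myf6 and Myog lay close to the middle of the array and Myod1 below it. Among 8465 genes of slide 1, Myog ranked 3992 from the top and Myod1 6898. Among 8343 genes of slide 2, Myf5 ranked 3241 and Myf6 3718. The largest difference between any pair of them was 0.53, between Myf5 and Myod1. It was 0.36 times the larger of their SDs over probes, which describe single probes and not the precision of a mean. The standard errors over probes were 0.13 at Myf5 and 0.24 at Myod1. Whether the genes differ was not tested. Values on different slides were centred separately.

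Of the 4 genes, 0 had a mean of 1 or more, which is 2-fold above the median probe, and 0 had a mean of -1 or less. Over all 16808 genes, 2.08% (349) reached 1 and 1.93% (324) reached -1. With a background this low, 0 of 4 says little by itself. The balance of high and low calls rests on the scaling: 521 and 133 genes passed without centring, and 469 and 66 after another background correction.

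**Figure D1:**
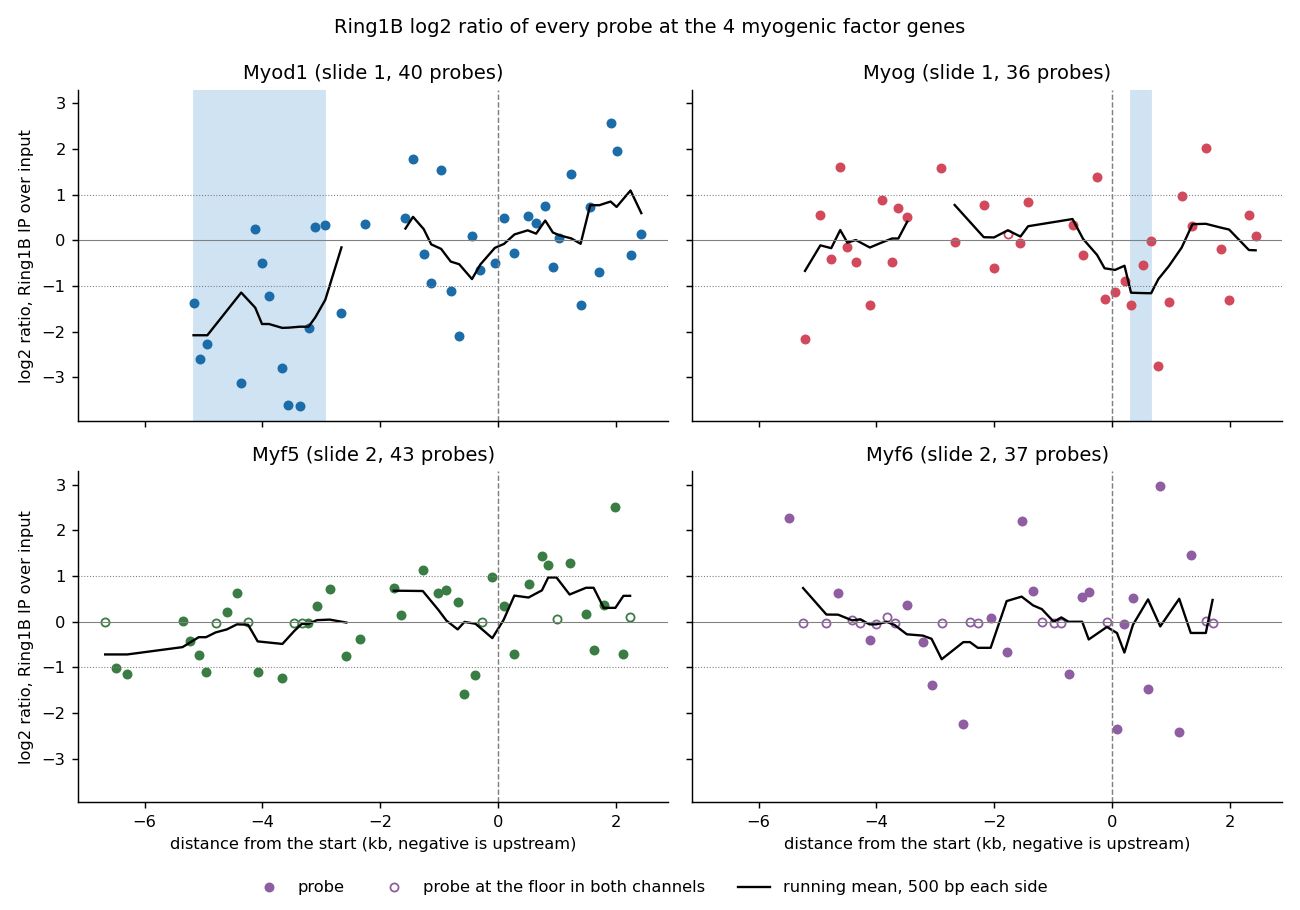
Log2 ratio of Ring1B-immunoprecipitated over input DNA at every probe of Myod1, Myog, Myf5 and Myf6 (y) against the distance from the start in kb (x). Points are probes, open points are probes at the lowest signal the scanner software assigns in both channels, the line is the running mean over 500 bp on either side, dotted lines mark 1 and -1, and shading marks runs at or below -1. The 13-probe low run upstream of Myod1 is the longest shaded stretch, and no gene has a shaded run on the high side.

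A region was called where 3 or more probes in a row had a running mean, taken over 500 bp on either side, at or above 1, or at or below -1. A high region was found at 0 of the 4 genes, against 29.1% of all genes. The highest running mean was 1.09 at Myod1, 2250 bp inside the gene and at 1 probe, so that it made no region. It was 0.97 at Myf5, 0.77 at Myog and 0.74 at Myf6. Low regions were found at Myod1 and Myog, 2 of the 4 genes, against 46.1% of all genes, so a low region as such is common on these arrays. The one at Myod1 covered 2288 bp. Its length rested on the settings. It was 724 bp with a running mean over 250 bp on either side and 950 bp with a running mean of at most -1.5. Where a gap of 500 bp ended a region it was 1480 bp. With a running mean over 1000 bp on either side it was 2569 bp. It stayed at 2288 bp with a cutoff of 0.75 in size and with at least 5 probes. Low regions of 2000 bp or more, a length set after seeing the data, touched 0.964% of all genes, and they made up 144 of 10093 low regions.

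Myod1 had the widest range of the 4 genes. Its 40 probes covered chr7:42547487-42555145, from -5168 bp to 2433 bp relative to the start (negative is upstream). The low region ran over chr7:42547487-42549774, from -5168 to -2932 bp. It began at the edge of the tiled stretch, so its full length was not seen. Its 13 probes had a mean of -1.70 (SD 1.46). Of these, 9 read -1 or less and 10 were below 0, with values from -3.63 to 0.33. The median input signal there was 1320 and the median immunoprecipitated signal 424, and 0 of the 13 probes were at the floor. The lowest kilobase, from -4000 to -3000 bp, had a mean of -2.15 over 6 probes. From -3000 bp to the start the kilobase means were -0.30, 0.26 and -0.45.

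Inside the Myod1 gene the ratios turned the other way. The 15 probes there had a mean of 0.39 (SD 1.04), and the 25 upstream probes one of -1.0003 (SD 1.496). The first kilobase of the gene held 15 of the 36 CpG dinucleotides in Myod1 probes and had a mean of 0.22 over 6 probes. Both channels were bright in that kilobase, with median signals of 3733 for input and 3717 for immunoprecipitated DNA. The probe with the most CpG dinucleotides at any of the 4 genes lay there, 505 bp after the start, and is printed because CpG-rich DNA is where Ring1B is known to gather.
Myod1, most CpG, chr7:42553165-42553209: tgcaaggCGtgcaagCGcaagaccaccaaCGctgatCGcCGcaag
It holds 5 CpG dinucleotides and read 0.54, with an input signal of 1708 and an immunoprecipitated signal of 2906. The mean of 0.39 inside Myod1 was exceeded by 22.2% of 15147 genes with at least 3 probes inside, and the upstream mean of -1.0003 by 96.2% of 14906 genes.

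The ratio moved with the input signal on both slides, and this bears on Myod1 most. Probes were ranked by input signal and split into 10 classes of equal size. On slide 1 the median ratio was 0.65 in the fourth class and -0.97 in the brightest. On slide 2 the same classes stood at 0.87 and -0.996. The median input signal was 1294 over the Myod1 probes, against 291 over slide 1. After the median of its input class was subtracted from each probe, an alternative chosen after seeing the data, the mean of Myod1 was 0.0072 in place of -0.48. Its low region then had a mean of -1.14 in place of -1.70. The mean inside the gene became 0.94, which 8.44% of genes exceeded. The upstream mean became -0.55, which 91.2% of genes exceeded. Input is also the denominator of the ratio, so a fall over these classes is partly built in. The subtraction can thus also take away low ratios that do not come from input brightness. Loess, a planned correction by the average signal within each slide, gave -0.24 at Myod1. The part of input brightness in the low ratios was not tested further.

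**Figure D2:**
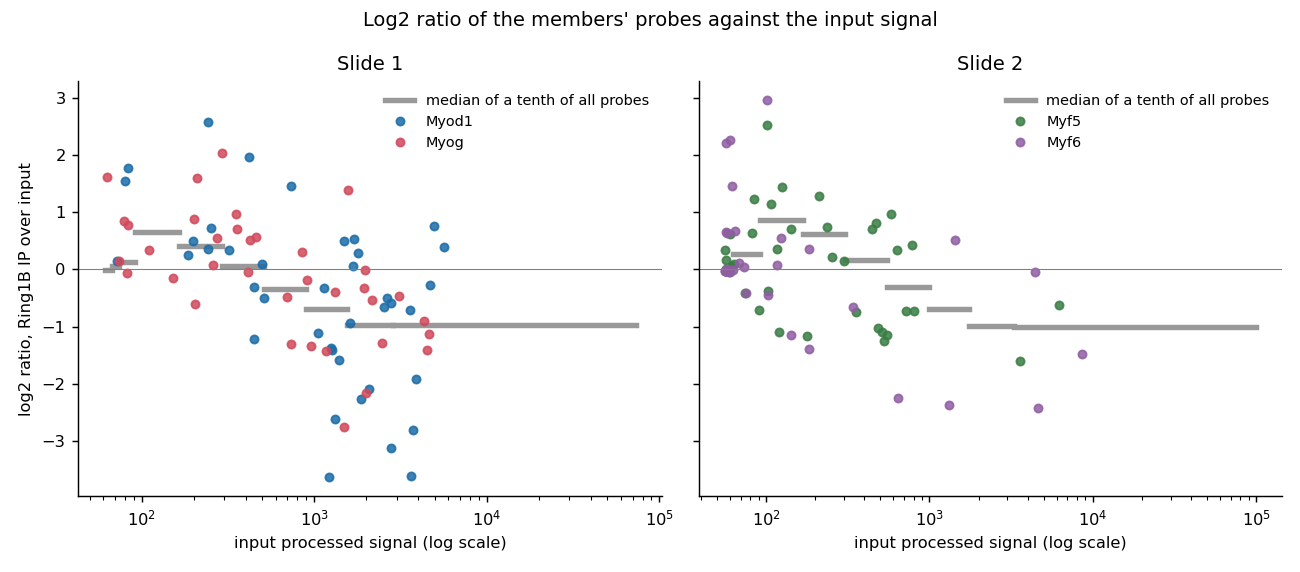
Log2 ratio of each probe of the 4 genes (y) against its input signal on a log scale (x), for slide 1 and slide 2. Grey bars are the medians over all probes of a slide in 10 classes of input signal, which fall from 0.65 to -0.97 on slide 1 and from 0.87 to -0.996 on slide 2 between the fourth class and the last. Most Myod1 probes lie at bright input, and many Myf6 probes lie at the dim end near 0.

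At Myog the lowest kilobase with more than 1 probe was the first of the gene. Its 36 probes covered chr1:134174561-134182266, from -5211 to 2439 bp. The first kilobase of the gene had a mean of -1.15 (SD 0.86) over 7 probes, all below 0. The kilobase before the start had a mean of 0.03 over 4 probes, and the 3 kilobases before that stood at 0.31, 0.43 and 0.41. Low probes also lay far from the start, with -2.15 at -5211 bp, -1.42 at -4110 bp and -1.30 at 1989 bp. Within 1000 bp of the start the mean was -0.72 over 11 probes, and 87.2% of 15714 genes exceeded it. The low region at Myog covered 388 bp, chr1:134180099-134180486, with 3 probes and a mean of -0.65 over these probes alone. Input signal was bright here too, with a median of 2166 in the first kilobase. After subtraction of the medians of the input classes, the mean within 1000 bp of the start was 0.04. The median over all genes was then 0.26, and 64.3% of genes exceeded Myog. With that correction the Myog start thus lay near 0 but still below the median gene.

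The Myog promoter is printed because probes of opposite sign fell beside each other in it. RefSeq's table, on GRCm38.p6, gave promoter sequences for Myog and Myf5, each with 250 bases before and 50 after the start. E-boxes are in capitals, since the myogenic factors bind that sequence. They were searched as CANNTG, which reads the same on both strands.
Myog, chr1:134289754-134290053, plus strand: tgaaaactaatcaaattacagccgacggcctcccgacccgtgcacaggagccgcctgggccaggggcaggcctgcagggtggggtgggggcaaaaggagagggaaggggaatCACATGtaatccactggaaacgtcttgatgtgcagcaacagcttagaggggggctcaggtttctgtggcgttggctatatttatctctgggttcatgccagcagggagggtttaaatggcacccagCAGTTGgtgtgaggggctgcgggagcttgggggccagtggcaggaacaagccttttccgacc
Myf5, chr10:107486085-107486384, minus strand: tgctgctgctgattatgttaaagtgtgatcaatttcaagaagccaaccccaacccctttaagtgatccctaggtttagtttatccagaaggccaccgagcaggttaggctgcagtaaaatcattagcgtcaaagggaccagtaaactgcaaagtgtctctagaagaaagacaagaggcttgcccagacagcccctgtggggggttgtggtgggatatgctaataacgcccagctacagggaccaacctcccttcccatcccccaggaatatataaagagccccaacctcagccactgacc
The Myog promoter holds 2 E-boxes and 9 CpG dinucleotides, and the Myf5 promoter 0 E-boxes and 3 CpG dinucleotides. Of 32851 promoters of this length in the table, 72.3% hold at least 1 E-box, and the median promoter holds 7 CpG dinucleotides. A match of these letters is a description and no site. In the Myog promoter, the probe centred at -142 bp from the RefSeq start lay wholly inside the printed sequence and read -1.28. The probe centred at -268 bp overlapped the upstream end and read 1.38. In the Myf5 promoter, 1 probe, centred at -140 bp from the RefSeq start, lay wholly inside and read 0.98. Its input signal was 580 and its immunoprecipitated signal 1274.

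Myf5 and Myf6 adjoin each other on chromosome 10 and point the same way, on the minus strand. Their starts lay 8596 bp apart and their probe sets were separated by 159 bp, so the 80 probes tile one stretch of 16379 bp in which Myf6 lies upstream of Myf5. Over the whole stretch the mean was 0.02 (SD 0.98). The pair differed by 0.06, less than the standard error over the probes of either gene (0.13 at Myf5 and 0.18 at Myf6). The file of slide 2 gives no distances, so the starts of these 2 genes were placed midway between the last promoter probe and the first probe inside the gene. Tried on slide 1, this rule missed the stated start by a median of 51.5 bp.

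At Myf5, 43 probes covered chr10:106946360-106955330. The mean was 0.48 (SD 0.95) over 13 probes inside the gene and -0.14 (SD 0.74) over 30 upstream probes. The highest kilobases were the second of the gene, with 0.74 over 5 probes, and the one from -2000 to -1000 bp, with 0.66 over 4 probes that were all above 0. The mean inside Myf5 was exceeded by 18.1% of genes, and by 35.7% after the correction for input class, where it was 0.28. None of the kilobases reached 1 at Myf5.

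At Myf6, 37 probes covered chr10:106955490-106962738, and many carried little signal. Both channels were at the floor at 16 of them, 43.2%, against a median of 12.2% over all genes. The floor is the lowest value that the scanner software assigns to a dim spot, and the ratio of 2 floor values stays near 0 whatever the DNA held. At Myf5 this was so for 8 probes, at Myog for 1 and at Myod1 for 0. Both channels stood well above background at 13 of the Myf6 probes, 28 of the Myf5 probes, 32 of the Myog probes and 37 of the Myod1 probes. Without the 16 floor probes the mean of Myf6 was -0.01, and the SD rose from 1.12 to 1.51. The 21 probes left include 5 with input alone and 3 with immunoprecipitated DNA alone at the floor. Without all probes dim in input the mean was -0.46 over 16 remaining probes. Another background correction gave -0.23 over all 37. The value of Myf6 near 0 is thus a mean of 21 scattered probes and 16 at the floor in both channels.

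The first kilobase of Myf6 had median signals of 1444 for input and 2318 for immunoprecipitated DNA. The lowest probe of the gene, 1142 bp after the start, was bright in input too, at 4650. The 5 probes of the first kilobase ran from -2.36 to 2.96 and had a mean of -0.08 (SD 2.05). Upstream, 28 probes had a mean of 0.04 (SD 0.88). The kilobase of highest mean, 1.12, rested on 2 probes, of which 1 was at the floor in both channels. The other read 2.26 with input at the floor, so that its ratio is only a bound.

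**Figure D3:**
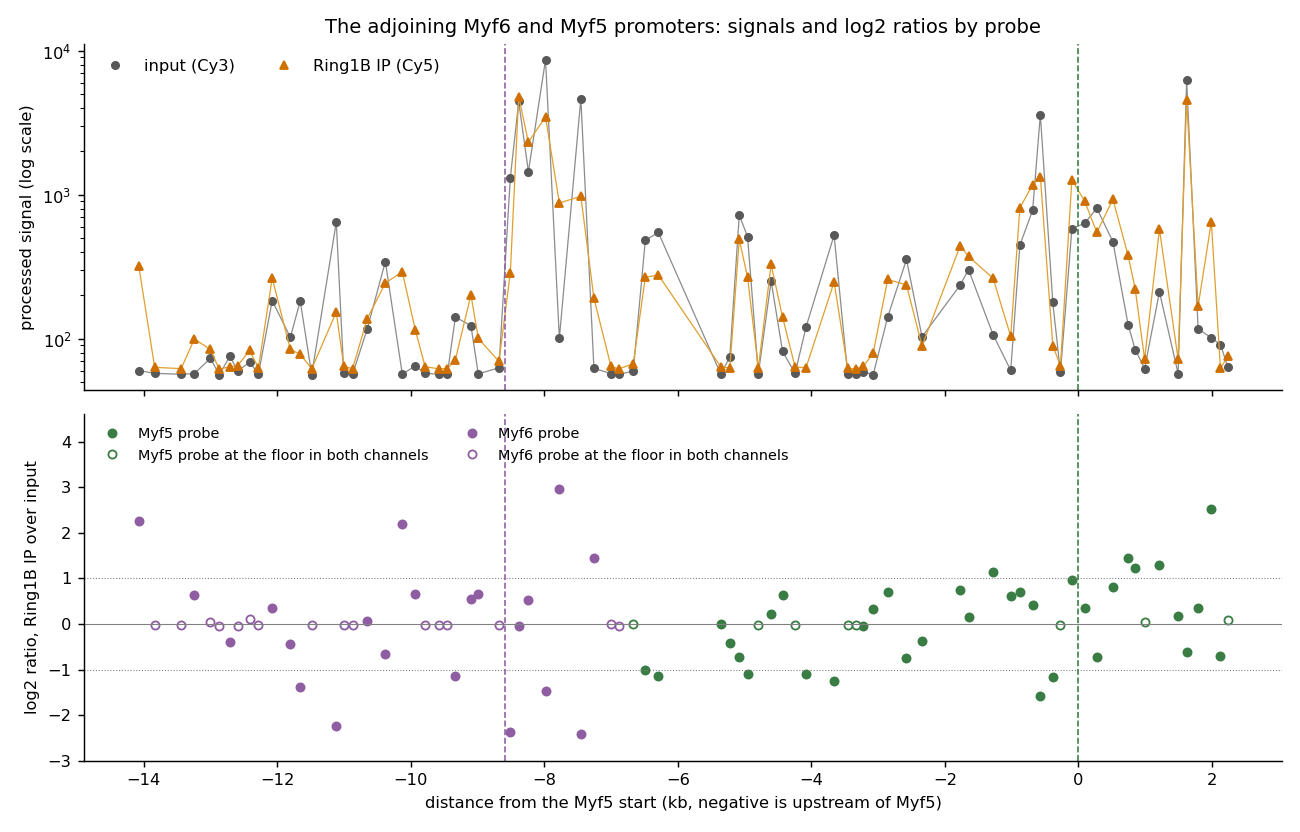
Processed signals of input and Ring1B-immunoprecipitated DNA on a log scale (upper panel) and log2 ratios (lower panel) at the 80 probes of Myf6 and Myf5, against the distance from the Myf5 start in kb. Dashed lines mark both starts, 8596 bp apart, and open points are the 24 probes at the floor in both channels. Both channels are at their brightest in and next to the 2 genes, and the open points lie near 0.

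CpG content was compared because Polycomb promoters in ES cells are known to be CpG-rich. The probes of Myod1 held 1.81 CpG dinucleotides per 100 bases, those of Myf5 1.21, those of Myf6 1.07 and those of Myog 0.71. The median gene had 1.26, and the median of the 349 genes at or above 1 was 2.21. Of 3865 genes with at least the CpG density of Myod1, 6.44% had a mean of 1 or more, against 2.08% of all genes. Myod1 had the highest CpG density of the 4 and the lowest mean. Within Myod1, 9 probes with 2 or more CpG dinucleotides had a mean of 0.54 and 19 probes without one had a mean of -0.84. Over all probes of genes on slide 1 these classes stood at 0.18 and -0.20. At Myf5 the same classes had means of 0.35 and -0.17, and at Myf6 -0.13 and -0.20. Over all probes of genes on slide 2 they stood at 0.26 and -0.13. Probes with 1 CpG dinucleotide had means of -0.68 at Myod1, -0.0047 at Myog, 0.28 at Myf5 and 0.73 at Myf6. Over all genes that class stood at -0.07 on slide 1 and 0.0025 on slide 2. At Myf6 it was the highest class. Myog had 1 probe with 2 CpG dinucleotides, the one at 1.38.

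Many regulators that act before the myogenic factors read higher than they did. Of 26 measured upstream regulators, 11 had a mean of 1 or more, against 2.08% of all genes. A mean of -1 or less was found at 0 of them, against 1.93% of all genes, and the median was 0.59. Of the 26, 20 lay above Myf5, the highest of the 4 myogenic genes, as did 34.8% of all genes. Values reached 2.02 at Lef1, which carries Wnt signals in the nucleus, 1.94 at Zic1, and 1.85 at Tbx1, which acts in head muscle precursors. Pax3 and Pax7, which mark the precursors of limb and trunk muscle and the later satellite cells, read 1.43 and 1.08. Tcf21 and Msc, bHLH factors of jaw muscle precursors, read 0.46 and 0.40. Six4, a homeodomain factor of muscle precursors, was the lowest of the list at -0.41. Over probes within 1000 bp of the start alone, the median of the list was 1.44 and 15 of the 26 reached 1, as did 0 of the 4 myogenic genes and 8.12% of 15714 genes. This list and those below were chosen with earlier results of these arrays known, so their counts are no independent contrast with all genes. The upstream regulators also had a median of 1.79 CpG dinucleotides per 100 bases, against 1.26 over all genes. The difference between the lists was not tested.

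The partners and inhibitors of the myogenic factors were mostly close to the median gene. Of 29 measured, 1 (3.45%) had a mean of 1 or more, against 2.08% of all genes, so the count was close to the background. It was Twist1 at 1.09, a bHLH protein that inhibits MyoD. The list had a median of 0.06, and up to 4 of its genes reached 1 under other processing that uses no picked stretch. The best run of 3 probes, which picks the highest stretch of each gene, put 24 at or above 1. Over probes within 1000 bp of the start 4 did, against 8.12% of 15714 genes. Id2, which lacks a DNA-binding region and takes E proteins away from the myogenic factors, followed just under 1 with 0.9965. The other inhibitors of this family that were named read 0.70 (Id3) and 0.20 (Id1). Hey1, a Notch-driven repressor, read 0.84. The E proteins differed, with 0.61 at Tcf12, 0.01 at Tcf4 and -0.71 at Tcf3. Mdfi, which holds myogenic factors in the cytoplasm, read -0.64, the cofactor Mef2c -0.13 and the histone methyltransferase Suv39h1 -0.78.

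Genes that the myogenic factors switch on in muscle were mostly near or below the median gene, and their difference from the other lists was not tested. Of 49 measured muscle genes, 0 had a mean of 1 or more and 1 had a mean of -1 or less. Over all genes these shares were 2.08% and 1.93%, so both counts were close to the background. The median of the list was -0.24, against -0.10 over all genes. Of the 49, 14 lay above 0, against 6679 of all 16808 genes, and 10 lay above Myf5, against 34.8% of all genes. Near the start, 2 of them reached 1, against 8.12% of all genes. A high region was found at 13 of them and a low region at 31, against 29.1% and 46.1% of all genes. The most negative were Mybph at -1.21, Ckm, the muscle creatine kinase, at -0.95, and the sarcomere genes Myoz1 at -0.90 and Myom1 at -0.85. Mymk, the fusion protein, read -0.62 and Acta1, skeletal actin, -0.14. Des, the intermediate filament desmin, read 0.13 and the acetylcholine receptor subunit Chrna1 0.02. Myh3 was not analysed here. The muscle genes also had fewer CpG dinucleotides, a median of 0.97 per 100 bases against 1.26 over all genes, and a brighter input, a median of 536 against 306. Input was brighter still in lists that read high, with a median of 755 for the upstream regulators and 631 for the other bHLH genes, whose CpG densities were 1.79 and 1.78. The part of both in the muscle values was not tested.

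Many bHLH factors of other tissues read higher than the myogenic factors, a difference that was not tested. Of 28 such genes measured, 9 had a mean of 1 or more, against 2.08% of all genes, and the median was 0.55. Olig2 read 2.10, Tal1 1.41 and Neurog2 1.41. Olig2 and Neurog2 direct neural lineages, and Tal1 directs blood. Of the 28, 17 lay above Myf5, as did 34.8% of all genes. Of 18 measured pluripotency genes, 1 (5.56%) had a mean of 1 or more, against 2.08% of all genes. It was Tbx3 at 1.32, and the median of this list was -0.02. Pou5f1 read -0.21, Sox2 0.32, Tdgf1 0.78, Zfp42 0.50 and Dppa5a -0.86. These values stand beside the muscle genes because the source names and titles of the labels differ, and neither list shows which cells were used.

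**Figure D4:**
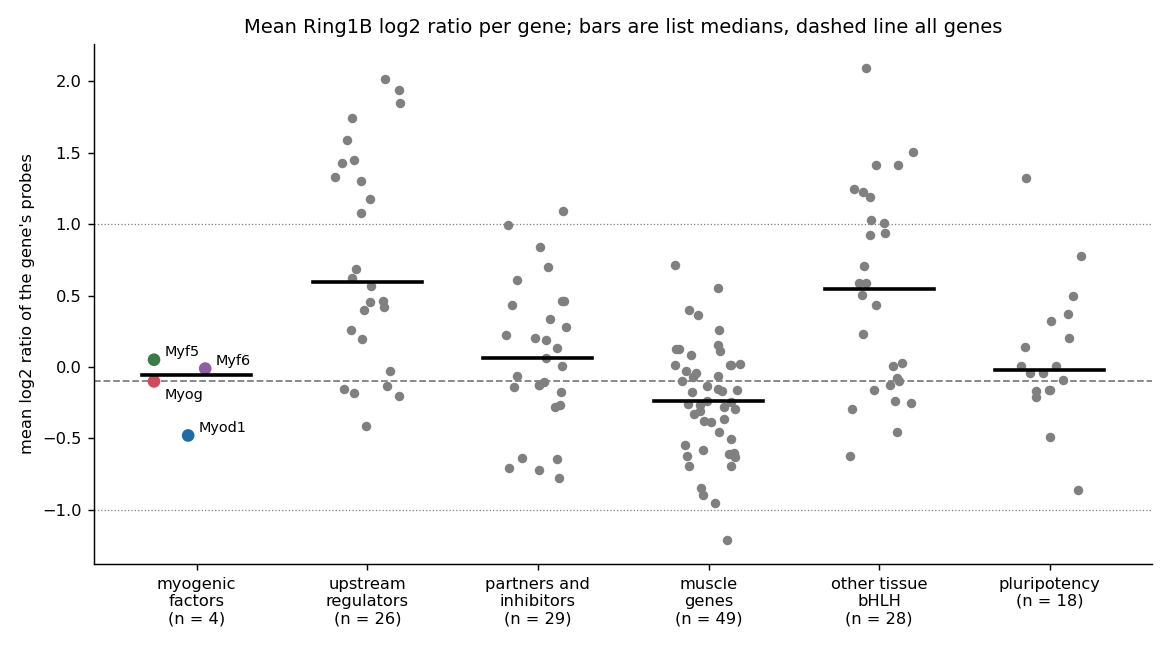
Mean log2 ratio per gene (y) for the 4 myogenic factors and 5 gene lists (x), with the number of measured genes under each. Points are genes, bars are list medians, dotted lines mark 1 and -1, and the dashed line is the median of all genes at -0.10. The myogenic factors lie between -0.48 and 0.05, and the upstream regulators reach 2.02.

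No neighbour of the myogenic genes had a mean of 1 or more. Only 2.08% of all genes had one, so this says little about so few neighbours. Within 200 kb of Myod1, 4 other genes were measured, from -0.39 at Kcnc1, a potassium channel gene 13.1 kb away, to 0.39 at Ush1c. Otog and Abcc8 lay between, at 0.29 and 0.22. Within 200 kb of Myog, 9 genes were measured, from -1.21 at Mybph to 0.21 at Klhl12. Adora1, the nearest at 43.8 kb, read -0.81 and Adipor1 -0.63. The others, Chil1, Rabif, Tmem183a, Cyb5r1 and Mgat4f, lay between -0.38 and 0.05. Mybph, a muscle gene 88.9 kb from Myog, was the sole neighbour at or below -1, a level that 1.93% of all genes reached. Myf5 and Myf6 had each other as their only measured neighbours within 200 kb.

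The genes whose profile along the promoter was most like that of a member were found by the correlation of 500 bp bin means over at least 12 shared bins on the same slide. The points are bins of 1 array and share its spots and labelling, so these values are a description. The genes named are also the highest of 4231 to 4885 correlations per member, each over few bins. Such a search gives high r values among unrelated profiles too, so r is not read as a likeness beyond that. For Myod1 they were Phox2a (r = 0.93), Hhip (0.86) and Tfap2b (0.86), out of 4885 genes compared. For Myog they were Crebl2 (0.90), Olfr1288 (0.81) and the microRNA gene mir-135b (0.80). For Myf5 they were Mgat1 (0.86), Eya4 (0.82) and Sim2 (0.79), and for Myf6 Olfr771 (0.82), Enpp5 (0.73) and Cdk16 (0.72). Their mean levels ran from -0.62 at Crebl2 to 1.83 at Sim2. Among the members themselves the correlation was 0.08 between Myod1 and Myog over 16 bins and 0.09 between Myf5 and Myf6 over 15 bins.

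The order of the 4 genes changed with the processing. Over 11 ways of making a gene's value from these probes, Myod1 was below 0 in 10, Myf6 in 10, Myog in 5 and Myf5 in 2. Their values lay from -0.61 to 0.0072, from -0.46 to 0.15, from -0.72 to 0.22 and from -0.17 to 0.21. None reached 1 or -1 in these 11. Only the best run of 3 probes, which picks the highest stretch of each gene, put 3 of the 4 at or above 1, and it did the same for 11775 of all genes.

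**Figure D5:**
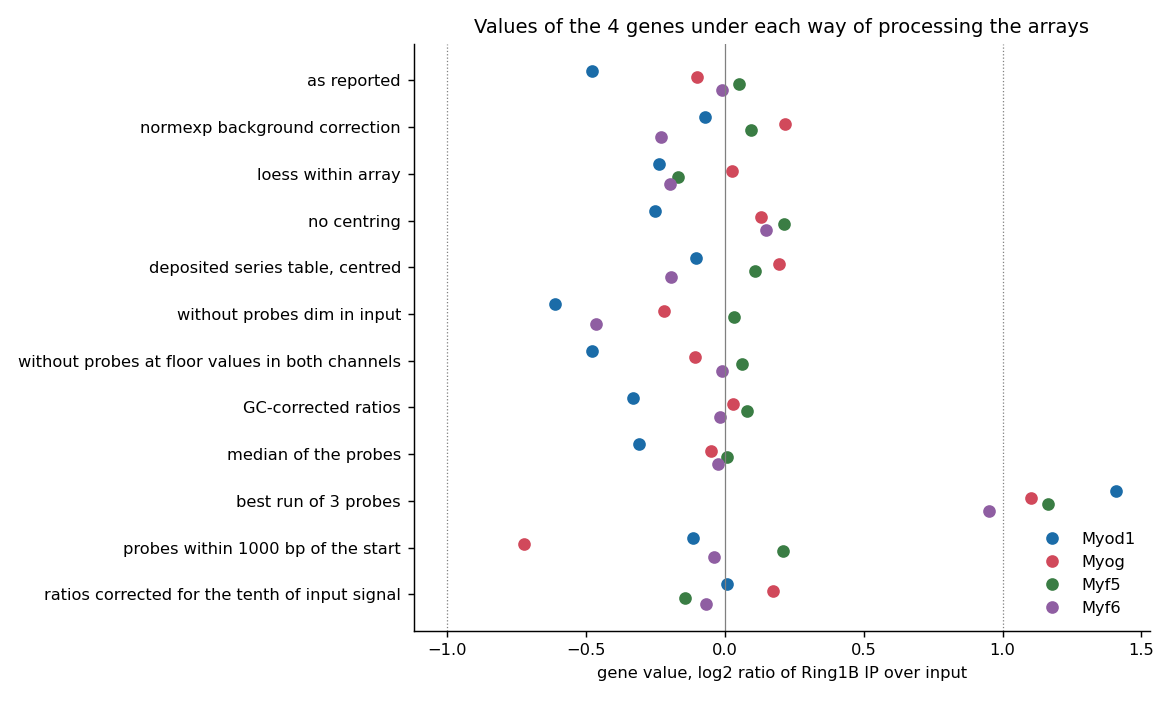
Value of each of the 4 genes (x, log2 ratio) under each way of processing the arrays (y), with dotted lines at 1 and -1. Apart from the best run of 3 probes, all points lie between -0.72 and 0.22, and the order of the genes differs between rows.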

How the data were processed

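Ring1B ChIP-chip signals were read from 2 scanner files. Per the file headers, the software was Agilent Feature Extraction 9.1.3.1, which made the deposited processed intensity values by subtracting background and scaling each dye. The deposited log10 ratio is red over green, per the file headers, and served as a check. Its largest difference from the log10 ratio of processed signals was 0.13 on slide 1 and 0.095 on slide 2. Spots at the floor in both channels were left out of that comparison. The deposited series table holds the log2 ratio of mean signals without centring, as compared with the array files (largest difference 5e-05). The genome build is not named in the labels or headers used here.

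Each probe's value was log2 of Cy5 over Cy3 processed signal minus the slide's median probe (0.23 on slide 1 and 0.16 on slide 2). Control spots and 141 and 17 outlier probes were left out, none at the 4 genes. This left 237054 and 237168 probes, with an SD of 1.33 and 1.44. Input stood well above background at 74.1% and 76.3% of probes, and both channels were at the floor at 18.2% and 15.5%. With 1 array per promoter, precision is limited by the number of arrays. Of 17041 array names, 12546 matched a symbol, 3871 an older symbol, 1 an accession and 623 none. The name Tcf3 on slide 1 is an older one of another gene, and Tcf3 was read from its own older name.

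The design called for a limma test only if both arrays carried the same probes, which they did not. The gene means and region calls were tried on simulated data with independent noise per probe and shifts over whole genes. The simulation held no floor values and no tie to input signal, so it checked the calculation only. Alternatives were made with limma 3.58.1 in R 4.3.3 (normexp with an offset of 50, and loess) and with pandas 2.3.3 in Python 3.11.15. Genes were named by a rule: the 4 members, the 4 genes of largest size in each list, a few genes fixed by name, every gene within 200 kb and the 3 genes of most like profile. Of the genes this rule takes, 3 are not reported here. The members, lists and rule were chosen with earlier results of these data known.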

Additional observations from a re-analysis of the deposited data

How the results depend on the processing

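Each promoter was on 1 array, so no replicate could be left out. No paired analysis was possible because the arrays share no probe. With no replicates, a gene value was taken as moved when it changed by more than its standard error over probes (0.13 to 0.24), and a count when it changed by more than 1.5 times. The count of 0 members at or above 1 held under every alternative but the best run of 3 probes, and the count of 0 at or below -1 under all. Normexp gave -0.072 at Myod1, 0.22 at Myog and -0.23 at Myf6, with 66 genes at or below -1. Loess gave -0.24 at Myod1, -0.17 at Myf5 and -0.20 at Myf6. No centring, which lifts all genes by 0.23 on slide 1 and 0.16 on slide 2, gave 0.13 at Myog and 0.21 at Myf5, with 133 genes at or below -1. The deposited series table gave -0.10 at Myod1 and 0.19 at Myog, with 55. Without probes dim in input, Myf6 was at -0.46 and 1253 genes at or below -1. Without probes at the floor in both channels the count was 688. The best run gave 1.41 at Myod1, 1.10 at Myog, 1.17 at Myf5 and 0.95 at Myf6, with 3 members and 11775 genes at or above 1 and 39 at or below -1. Probes within 1000 bp of the start gave -0.11 at Myod1, -0.72 at Myog and 0.21 at Myf5, with 1276 genes at or above 1 and 1047 at or below -1. With at least 20 probes, 154 genes were at or below -1. A threshold of 0.5 called 1336 high and 2648 low, and one of 1.5 called 114 and 41. Correction by input class, added after seeing the data, gave 0.0072 at Myod1, 0.17 at Myog and -0.14 at Myf5, with 81 genes at or below -1. Only 1 member kept a low region, Myod1, with a 1000 bp window, a running mean of at most -1.5, at least 5 probes or a length of at least 2000 bp, the last added after seeing the data. With a running mean of 0.75, 1 member had a high region, Myod1. For the lists, moves of a median by more than the standard error over its genes, or of a count by more than 1.5 times, were as follows. The median of the upstream regulators was 0.86 with normexp, 0.79 without centring, 0.82 in the series table, 0.40 by median probes, 1.44 near the start and 0.94 with input correction. That of the other bHLH genes was 0.71 with normexp, 0.74 without centring, 0.699 in the series table, 0.702 near the start and 0.77 with input correction. That of the muscle genes was -0.017 with normexp, -0.012 without centring, -0.041 in the series table, -0.35 without dim probes, -0.17 with GC correction, -0.0097 by median probes, -0.43 near the start and -0.067 with input correction. That of the partners was 0.29 without centring, -0.077 without dim probes, 0.18 near the start and 0.183 with input correction, and that of the pluripotency genes 0.19 with normexp, in the series table and, at 0.187, without centring, and 0.31 near the start. The partners at or above 1 were 4 with normexp, near the start and with input correction, 3 with loess, without centring and in the series table, and 2 with GC correction. Near the start, 2 muscle genes and 2 pluripotency genes passed. By best run the upstream, partner, muscle, bHLH and pluripotency medians were 2.72, 1.46, 1.33, 2.36 and 1.84, and 25, 24, 35, 27 and 13 genes passed. A threshold of 0.5 called 5 partners, 2 muscle, 15 bHLH and 2 pluripotency genes, and one of 1.5 called 5 upstream, 0 partner, 2 bHLH and 0 pluripotency genes. The causes of these shifts were not tested. Of the other values, lengths of regions at single members, 7 moved and 41 did not. The floor limits Myf6 most.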

Other observations

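Muscle microRNA genes, which the myogenic factors are known to switch on, were also on slide 1 and belong to none of the lists above. They were chosen after the data were seen. The mean log2 ratio was 0.74 (SD 0.96, 20 probes) at mir-206, 0.09 (SD 1.12, 17 probes) at mir-133b, -0.16 (SD 1.10, 26 probes) at mir-1-1 and -0.36 (SD 1.40, 41 probes) at mir-133a-2. A high region, of 505 bp, was found at mir-206 and at none of the other 3, against 29.1% of all genes. Both channels were at the floor at 50.0% of the mir-206 probes, and its median probe read 0.26, so its mean rested on the other probes. With 1 array and no replicate, these values carry no test.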
